A study of Mus musculus with 12 samples.

Results

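The comparison of activated mouse CD4+ T cells given IL-12 for 2 h with cells left untreated for 2 h held 7 of the 12 arrays of the series. They were chosen by title: 5 arrays labelled IL-12 2 h, with title numbers 2 to 6, and 2 arrays labelled untreated 2 h, with title numbers 7 and 8, the only control of the same time. The cells were splenic, from C57BL/6 males 6 weeks of age, were isolated as CD4+ by negative selection, which removes other cells and leaves the wanted ones untouched, and were activated for 48 h with beads that bind CD3 and CD28. The treated cells then received IL-12 at 100 U/ml. The other 5 arrays, 4 of cells with IL-12 for 8 h and 1 labelled baseline, entered the fit and are described only beside the genes of this comparison. The labels do not say whether arrays of a group came from separate animals, pools or cultures, so each p-value reflects the spread among these arrays, and that spread may be technical. RNA was hybridised to Affymetrix Mouse Gene 1.0 ST arrays, whose probes lie along the whole transcript, and levels are log2 intensities of 19752 genes.

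IL-12 is a cytokine of dendritic cells and macrophages. Its receptor, a pair of chains encoded by Il12rb1 and Il12rb2, carries the kinases TYK2 and JAK2, which phosphorylate the transcription factor STAT4. In activated helper T cells this path is known for raising interferon-gamma and for preparing the cell to answer IL-18, and with the transcription factor T-bet it sets up the Th1 fate.

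After 2 h of IL-12, 14 genes were higher and 0 were lower (limma with Benjamini-Hochberg adjustment, adjusted p under 0.05; 0.0709% and 0% of all genes). The 14 were the cytokine gene Ifng, the IL-18 receptor genes Il18r1 and Il18rap, the adaptor gene Myd88, the convertase gene Furin, the transcription regulator genes Jun and Sbno2, the surface and signalling genes Cd86, P2rx7, Gnaq and Frmd4b, and Serpinb5, Mir505 and D730005E14Rik. Their rises lay between a log2 of 0.49 and 1.94, with SE from 0.08 to 0.20. Before adjustment, at a p under 0.05, 539 genes were higher (2.73%) and 432 lower (2.19%).

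In each of the 14 genes all 5 IL-12 arrays lay above both untreated arrays (6.58% of all genes), and so did arrays 5 and 6 by themselves (12.9% of all genes). The 14 were chosen by the difference between these arrays, so this describes the calls and adds no support to them. A median gene had a 95% interval of its log2 change that reached 0.20 to either side, a fold of 1.15, before any adjustment for the number of genes. Smaller changes could not be told from the spread of these arrays. The interval is not the limit for a call, as the smallest change called was 0.49.

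The sequence before the start of each gene is shown for 4 of the 14, Ifng and the 3 genes of the IL-18 receptor path, because IL-12 acts through STAT4 and STAT proteins bind a short known motif. The windows are the 250 bases before the start from RefSeq, build GRCm38.p6, 5′ to 3′ on the gene's own strand, and where a gene has several starts the outermost was taken. Capitals mark a match to TTCNNNGAA or to the same letters with 4 free bases, the STAT motifs, which read the same on both strands.
Ifng, chr10:118440796-118441045, plus strand: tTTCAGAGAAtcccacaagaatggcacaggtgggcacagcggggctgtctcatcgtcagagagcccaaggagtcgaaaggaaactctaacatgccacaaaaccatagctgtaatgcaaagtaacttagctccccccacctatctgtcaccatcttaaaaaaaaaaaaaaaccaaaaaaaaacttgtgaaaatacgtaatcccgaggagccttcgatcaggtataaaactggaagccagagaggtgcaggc
Il18r1, chr1:40465302-40465551, plus strand: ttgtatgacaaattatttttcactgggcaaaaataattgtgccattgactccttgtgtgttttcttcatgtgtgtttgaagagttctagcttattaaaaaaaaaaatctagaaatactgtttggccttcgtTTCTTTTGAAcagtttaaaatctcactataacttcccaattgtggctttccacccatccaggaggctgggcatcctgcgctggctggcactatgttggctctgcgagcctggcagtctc
Il18rap, chr1:40515112-40515361, plus strand: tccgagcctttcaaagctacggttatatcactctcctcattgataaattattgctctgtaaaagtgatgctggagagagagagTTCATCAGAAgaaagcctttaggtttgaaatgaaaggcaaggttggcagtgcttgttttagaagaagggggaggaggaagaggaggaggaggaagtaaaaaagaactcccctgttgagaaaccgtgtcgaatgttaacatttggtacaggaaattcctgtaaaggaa
Myd88, chr9:119340019-119340268, minus strand: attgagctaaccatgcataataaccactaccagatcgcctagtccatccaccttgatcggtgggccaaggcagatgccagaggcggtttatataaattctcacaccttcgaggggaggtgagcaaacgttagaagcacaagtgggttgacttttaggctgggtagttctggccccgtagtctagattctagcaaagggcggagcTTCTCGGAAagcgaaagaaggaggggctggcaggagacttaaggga

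The Ifng match lay 249 bases before the start, at the far edge of the window, that of Il18r1 119 bases, that of Il18rap 167 bases and that of Myd88 46 bases before it. RefSeq windows were found for 12 of the 14 genes. The form with 3 free bases was present in 5 of these 12 (Ifng, Il18r1 at another start, Myd88, Sbno2 and D730005E14Rik), or 41.7%, and in 8.13% of all 27025 genes with a window. The form with 4 free bases was present in Il18r1 and Il18rap, 2 of 12 or 16.7%, against 6.76% of all genes. The AP-1 motif TGANTCA, which also reads the same on both strands, was present in Frmd4b, P2rx7 and Serpinb5, 3 of 12 or 25.0%, against 7.82%. The windows of Furin, Gnaq and Jun held none of these motifs. All of these are matches of letters in a short window, not measured binding, and genes with several starts had more windows in which a match could fall.

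**Figure D1:**
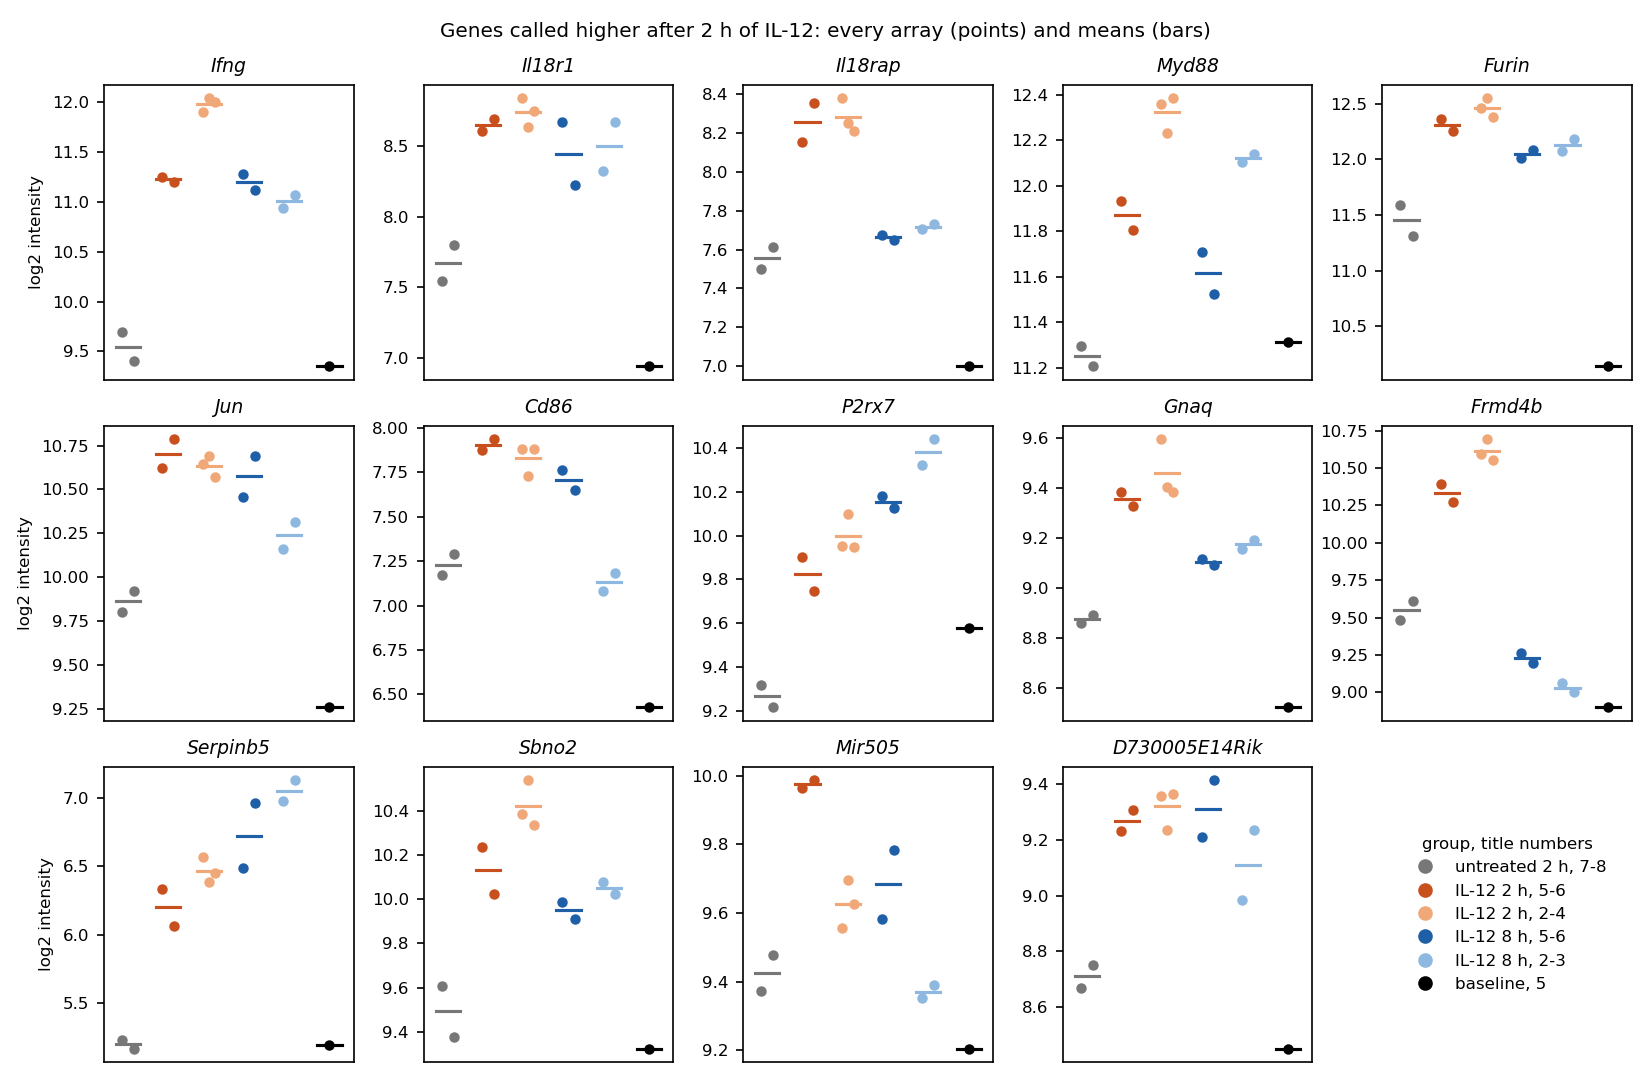
Log2 intensity of the 14 genes that passed, 1 panel a gene with its own y axis, in every array of the series; points are arrays, bars are means, and colours separate groups and title numbers. All 5 IL-12 2 h points lie above both untreated points in every panel.

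Ifng encodes interferon-gamma, the main effector cytokine of Th1 cells. Its log2 level was 11.90 and 12.04 in IL-12 arrays 2 and 3, between these in array 4, and 11.25 and 11.20 in IL-12 arrays 5 and 6, against 9.69 and 9.40 in untreated arrays 7 and 8. The groups were far apart, and within the IL-12 group the arrays numbered 2 to 4 were all higher than those numbered 5 and 6. Ifng rose 3.83-fold (95% interval 2.85 to 5.15; log2 1.94 ± 0.20, limma adjusted p = 0.0025). Among arrays 5 to 8 alone the rise was 3.20-fold (log2 1.68 ± 0.12, limma adjusted p = 0.0206), and Ifng was the 1 gene, 0.00506% of those tested, that passed there.

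Il18r1 encodes the chain of the IL-18 receptor that binds the cytokine. Its levels were 8.84, 8.64, 8.75, 8.61 and 8.69 in IL-12 arrays 2 to 6 and 7.54 and 7.80 in the untreated arrays. The 5 IL-12 arrays lay close together irrespective of their number, and all were well above the untreated pair. Il18r1 rose 1.99-fold (log2 0.99 ± 0.13, limma adjusted p = 0.0102; 0.98 among arrays 5 to 8). Il18rap, the accessory chain without which the receptor does not signal, had 8.38, 8.25, 8.21, 8.15 and 8.36 with IL-12 and 7.50 and 7.61 without. Here too the number of the array made no visible difference. Il18rap rose 1.61-fold (log2 0.69 ± 0.08, limma adjusted p = 0.00561; 0.70 among arrays 5 to 8).

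Myd88 encodes the adaptor that passes IL-18, IL-1 and Toll-like receptor signals to the IRAK kinases. It was a bright gene, at 12.36, 12.23 and 12.39 in IL-12 arrays 2 to 4, 11.93 and 11.80 in arrays 5 and 6, and 11.29 and 11.21 in the untreated arrays. The groups did not overlap, but the arrays numbered 2 to 4 stood above those numbered 5 and 6, and the run of title numbers differed by a log2 of 0.48 ± 0.06 (limma adjusted p = 9.79e-05) in the fit. Myd88 rose 1.52-fold (log2 0.60 ± 0.09, limma adjusted p = 0.0146), and by 0.62 among arrays 5 to 8, a comparison without the run term. Of the 18 measured genes of the IL-18 and IL-1 receptor family and its MyD88 path, 3 rose and 0 fell (0.0709% and 0% of all genes). The remaining 15 lay between -0.12 and 0.20, among them the kinase gene Irak2 at 0.18, the ubiquitin ligase gene Traf6 at 0.06, the decoy gene Il18bp at 0.20 and the inhibitory receptor gene Sigirr at -0.04. The list's median was 0.04, beside -0.003 over all genes.

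Furin encodes a proprotein convertase that cleaves precursors of TGF-beta and many other secreted and surface proteins, and is known as an IL-12 and STAT4 responsive gene of T cells. Its levels were 12.46, 12.55, 12.38, 12.36 and 12.25 in IL-12 arrays 2 to 6 and 11.59 and 11.31 in the untreated arrays. All 5 IL-12 arrays were well above both controls, and untreated array 7 was the higher of the controls. Furin rose 1.83-fold (log2 0.87 ± 0.09, limma adjusted p = 0.0025; 0.85 among arrays 5 to 8). Of the 18 measured genes of proprotein convertases and TGF-beta signalling it was the only gene to pass. The other convertase genes Pcsk1, Pcsk4, Pcsk5, Pcsk6 and Pcsk7 had log2 changes between -0.08 and 0.08, the ligand gene Tgfb1 had 0.01, and the signal mediator Smad3 and the receptor gene Tgfbr2 had the most negative values, -0.30 and -0.21 (limma adjusted p = 0.759 and 0.969), and that of Tgfbr2 was -0.13 among arrays 5 to 8.

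Jun encodes a subunit of AP-1, the transcription factor that also carries T cell receptor signals. Its levels were 10.64, 10.69, 10.57, 10.62 and 10.79 with IL-12 and 9.80 and 9.92 without. The IL-12 arrays formed a tight group above both controls. Jun rose 1.89-fold (log2 0.92 ± 0.11, limma adjusted p = 0.00362; 0.84 among arrays 5 to 8). It was the only one of 26 measured AP-1, Egr and Nr4a genes to pass. Its partner genes Junb, Jund, Fos and Fosl2 had 0.10, 0.11, 0.21 and 0.19, and the T cell receptor response genes Egr1, Egr2 and Nr4a1 had -0.04, -0.04 and -0.29, and Nr4a1 -0.10 among arrays 5 to 8. The median of the list was 0.10, and 0.00 among arrays 5 to 8.

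Sbno2, a transcriptional co-regulator gene studied mostly in macrophages, had levels of 10.38, 10.54, 10.34, 10.24 and 10.03 with IL-12 and 9.61 and 9.38 without. The groups were separate, with IL-12 array 6 nearest to the controls. Sbno2 rose 1.61-fold (log2 0.69 ± 0.10, limma adjusted p = 0.0202; 0.64 among arrays 5 to 8).

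Cd86, a ligand of CD28 and CTLA-4 that is best known on antigen-presenting cells, was at 7.88, 7.73, 7.88, 7.87 and 7.94 with IL-12 and 7.17 and 7.29 without. The IL-12 arrays lay close together, above the median log2 level of all genes of 7.37, and the untreated arrays lay below it. Cd86 rose 1.75-fold (log2 0.81 ± 0.12, limma adjusted p = 0.0243; 0.67 among arrays 5 to 8). None of the other 12 measured genes of the CD28 and B7 family passed. The checkpoint gene Btla had 0.34, and 0.20 among arrays 5 to 8. The ligand genes Cd274, Pdcd1lg2 and Cd80 had 0.23, 0.28 and 0.12, where Pdcd1lg2 had 0.07 among arrays 5 to 8, and the receptor genes Icos, Ctla4 and Cd28 had 0.21, 0.08 and -0.03.

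P2rx7 encodes a channel that opens when extracellular ATP binds it. Levels were 9.95, 10.10, 9.95, 9.90 and 9.75 with IL-12 and 9.32 and 9.22 without. The groups did not overlap, and the baseline array, at 9.58, lay between them. P2rx7 rose 1.46-fold (log2 0.54 ± 0.08, limma adjusted p = 0.0249; 0.56 among arrays 5 to 8). It alone passed among 17 measured purinergic receptor and ectonucleotidase genes, whose median was 0.03.

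Gnaq encodes the alpha subunit of the G protein that activates phospholipase C beta. Its levels were 9.60, 9.40, 9.38, 9.38 and 9.33 with IL-12 and 8.86 and 8.89 without. IL-12 array 2 stood above the other 4, and all 5 were well above the controls. Gnaq rose 1.41-fold (log2 0.49 ± 0.08, limma adjusted p = 0.0398; 0.48 among arrays 5 to 8). Of the 14 measured G protein alpha subunit genes no other passed, and their median was 0.00.

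Frmd4b, which encodes a scaffold protein with a FERM domain, had 10.60, 10.69, 10.56, 10.39 and 10.27 with IL-12 and 9.49 and 9.61 without. The groups were clearly apart. Frmd4b rose 1.88-fold (log2 0.91 ± 0.12, limma adjusted p = 0.00719; 0.78 among arrays 5 to 8). Serpinb5, a clade B serpin gene, was dim, at 6.57, 6.39, 6.45, 6.34 and 6.06 with IL-12 and 5.23 and 5.17 without, below the median of all genes in every array. It rose 1.98-fold (log2 0.99 ± 0.13, limma adjusted p = 0.00719; 1.00 among arrays 5 to 8), and was the only clade B serpin gene of 15 measured to pass. D730005E14Rik, a gene known by its clone name, had 9.36, 9.24, 9.36, 9.23 and 9.31 with IL-12 and 8.67 and 8.75 without. It rose 1.54-fold, closest to the threshold of the 14 (log2 0.63 ± 0.10, limma adjusted p = 0.0484; 0.56 among arrays 5 to 8). A second D730005E14Rik probe set, nearly as bright with a mean log2 level of 8.95 against 9.10, had a change of 0.29 ± 0.09 (limma adjusted p = 0.667 over all probe sets), and with the probe sets averaged the gene was not called.

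Mir505 is a microRNA gene. The mature sequences are shown so that the product can be recognised, from RefSeq on GRCm38.p6, minus strand, with the seed (bases 2 to 8), the part of a microRNA that pairs with its targets, in capitals.
miR-505-3p, chrX:60394416-60394437: cGUCAACAcuugcugguuuucu
miR-505-5p, chrX:60394451-60394473: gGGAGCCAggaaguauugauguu
The seed of the 3p arm occurred in 1 of 1738 mature mouse microRNAs of the table, its own, and that of the 5p arm in 2. The Mir505 probe set was at 9.56, 9.70 and 9.63 in IL-12 arrays 2 to 4, 9.96 and 9.99 in arrays 5 and 6, and 9.37 and 9.48 in the untreated arrays. The groups did not overlap, though IL-12 array 2 lay only just above untreated array 8. Mir505 rose 1.45-fold (log2 0.54 ± 0.08, limma adjusted p = 0.0243; 0.55 among arrays 5 to 8). An array of this kind labels longer transcripts, so the value is not a measure of either mature arm.

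Genes of the IL-12 receptor, its kinases and the STAT factors did not pass: 0 of 14 measured rose and 0 fell, with a median of 0.13, and 0.07 among arrays 5 to 8. Il12rb2, the chain that activation and interferon-gamma are known to induce, was at 12.45, 12.52, 12.46, 12.04 and 11.81 with IL-12 and 11.74 and 11.55 without. All IL-12 arrays were above both controls, though array 6 was close to untreated array 7, and the log2 change was 0.39 ± 0.12 (limma adjusted p = 0.796). Il12rb1 was at 11.06, 11.16, 11.04, 10.76 and 10.69 against 10.88 and 10.94, so that the controls fell inside the range of the IL-12 arrays. Its change was -0.09, with a 95% interval from -0.31 to 0.13. The kinase genes Jak2 and Tyk2 had 0.17 and 0.11 with intervals of -0.08 to 0.43 and -0.12 to 0.34, and Stat4 had -0.12 with -0.28 to 0.05. Among arrays 5 to 8 Il12rb2 had 0.27, Jak2 0.07, Tyk2 0.12, Stat4 -0.06 and Il12rb1 -0.19. For Stat4 and Il12rb1, IL-12 arrays 5 and 6 were both below both controls (16.5% of all genes). The largest of the others were Stat2 at 0.36 and Il6st, the shared signal chain of the IL-6 family receptors, at 0.35 (limma adjusted p = 0.422 and 0.181).

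Of 29 measured genes of the Th1 programme and known STAT4 targets, 4 rose (Ifng, Il18r1, Furin and Il18rap) and 0 fell, where 0.0709% and 0% of all genes did. Of the 29 changes 22 were positive, against 48.5% of all genes, and the median was 0.13. This list was drawn up with earlier results of these arrays known. Tbx21, which encodes T-bet, had levels of 12.34, 12.27, 12.22, 11.93 and 11.66 with IL-12 and 11.36 and 11.20 without. The groups did not overlap, but the change of 0.56 ± 0.10 missed the threshold (limma adjusted p = 0.0705), and it was 0.51 among arrays 5 to 8. Gadd45g, a known IL-12 induced stress-response gene, had 0.79, and 0.61 among arrays 5 to 8. Irf1, Prdm1 and the cytokine gene Il2 had 0.26, 0.40 and 0.56, but 0.17, 0.26 and 0.19 among arrays 5 to 8, and Il2 had a run-by-time interaction of -1.33 (limma adjusted p = 0.00218). Hlx had 0.06 and the effector genes Gzmb and Tnf -0.01 and 0.02. The most negative values were those of the chemokine receptor gene Cxcr3 at -0.41, the death ligand gene Fasl at -0.34 and Eomes, a T-bet relative, at -0.32. Among arrays 5 to 8 these were -0.17, -0.26 and -0.55.

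Inhibitors and feedback genes of cytokine signalling had 0 rises and 0 falls among 22 measured and a median of 0.09. Socs3, an inhibitor of cytokine receptors, was at 9.96 to 10.13 in IL-12 arrays 2 to 4, 9.35 and 9.27 in arrays 5 and 6, and 8.90 and 8.99 in the controls. Every IL-12 array was above the controls. IL-12 arrays 2 to 4, whose numbers hold no untreated array, stood above IL-12 arrays 5 and 6. The change was 0.49 ± 0.12 (limma adjusted p = 0.422) and 0.37 among arrays 5 to 8. Socs1 had 0.27, and 0.10 among arrays 5 to 8, and overlapped the controls, and Usp18, which restrains type I interferon receptors, had 0.47 (limma adjusted p = 0.078).

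No member of either list of interferon-induced genes passed, while most of their changes were positive. Of 22 measured interferon-gamma-induced GTPase and antigen presentation genes, 0 rose and 0 fell. Of their changes 18 were positive (48.5% of all genes), the median was 0.25, and 0.20 among arrays 5 to 8, beside -0.003 and -0.005 over all genes. Before adjustment 13 passed 0.05 as higher and 0 as lower (2.73% and 2.19% of all genes), and in 13 all 5 IL-12 arrays lay above both controls (6.58% of all genes). Gbp5, a guanylate-binding protein gene of defence against intracellular microbes, was at 11.24, 11.32 and 11.22 in IL-12 arrays 2 to 4, at 10.99 in array 5 and just above that in array 6, and at 10.54 in both untreated arrays. The IL-12 arrays were all above the controls, and the change of 0.52 ± 0.09 lay just outside the threshold (limma adjusted p = 0.0513). Iigp1, another GTPase gene, had 11.20, 11.05 and 11.16 in arrays 2 to 4 and 10.26 and 10.55 in arrays 5 and 6, against 9.74 and 9.84. Most of its fitted change of 0.86 ± 0.19 (limma adjusted p = 0.219) was present in arrays 5 and 6 as well, at 0.62. The transcription factor gene Irf8 had 0.47, Irgm1 0.40, and the chemokine genes Cxcl9 and Cxcl10 0.75 and 0.72, and 0.52 and 0.43 among arrays 5 to 8. The antigen presentation genes were flat by contrast, with Tap1 at 0.11, Psmb9 at 0.06, Tap2 at -0.09, Psmb8 at -0.09 and B2m at -0.04.

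Of the genes stimulated by type I interferon 32 were measured, of which 0 rose and 0 fell; 25 changes were positive (48.5% of all genes), and 15 were higher and 0 lower before adjustment (2.73% and 2.19%). The median was 0.23, and 0.19 among arrays 5 to 8, beside -0.003 and -0.005 over all genes. Ifit3, an antiviral gene, was at 8.25, 8.18 and 8.09 in IL-12 arrays 2 to 4, 7.38 and 7.45 in arrays 5 and 6, and 6.96 and 6.76 in the controls. All 5 IL-12 arrays were above both controls, though numbers 2 to 4 hold no untreated array and the fitted run difference was 0.63 ± 0.09. The change was 0.63 ± 0.12 (limma adjusted p = 0.135), with 0.55 among arrays 5 to 8. Ifit1 had 0.56, and 0.32 among arrays 5 to 8, the RNA sensor gene Tlr7 0.40 and Stat2 0.36, whereas the antiviral genes Mx1, Bst2, Oas2 and Isg20 had -0.18, -0.10, -0.03 and -0.03. The list also differed with the run of numbers, by a median of 0.46. Interferon receptor and interferon genes other than Ifng had a median of -0.05 with 0 of 10 passing, Ifngr1 and Ifngr2 at -0.17 and -0.13 (-0.01 and -0.27 among arrays 5 to 8) and the type I gene Ifnb1 at -0.08.

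**Figure D2:**
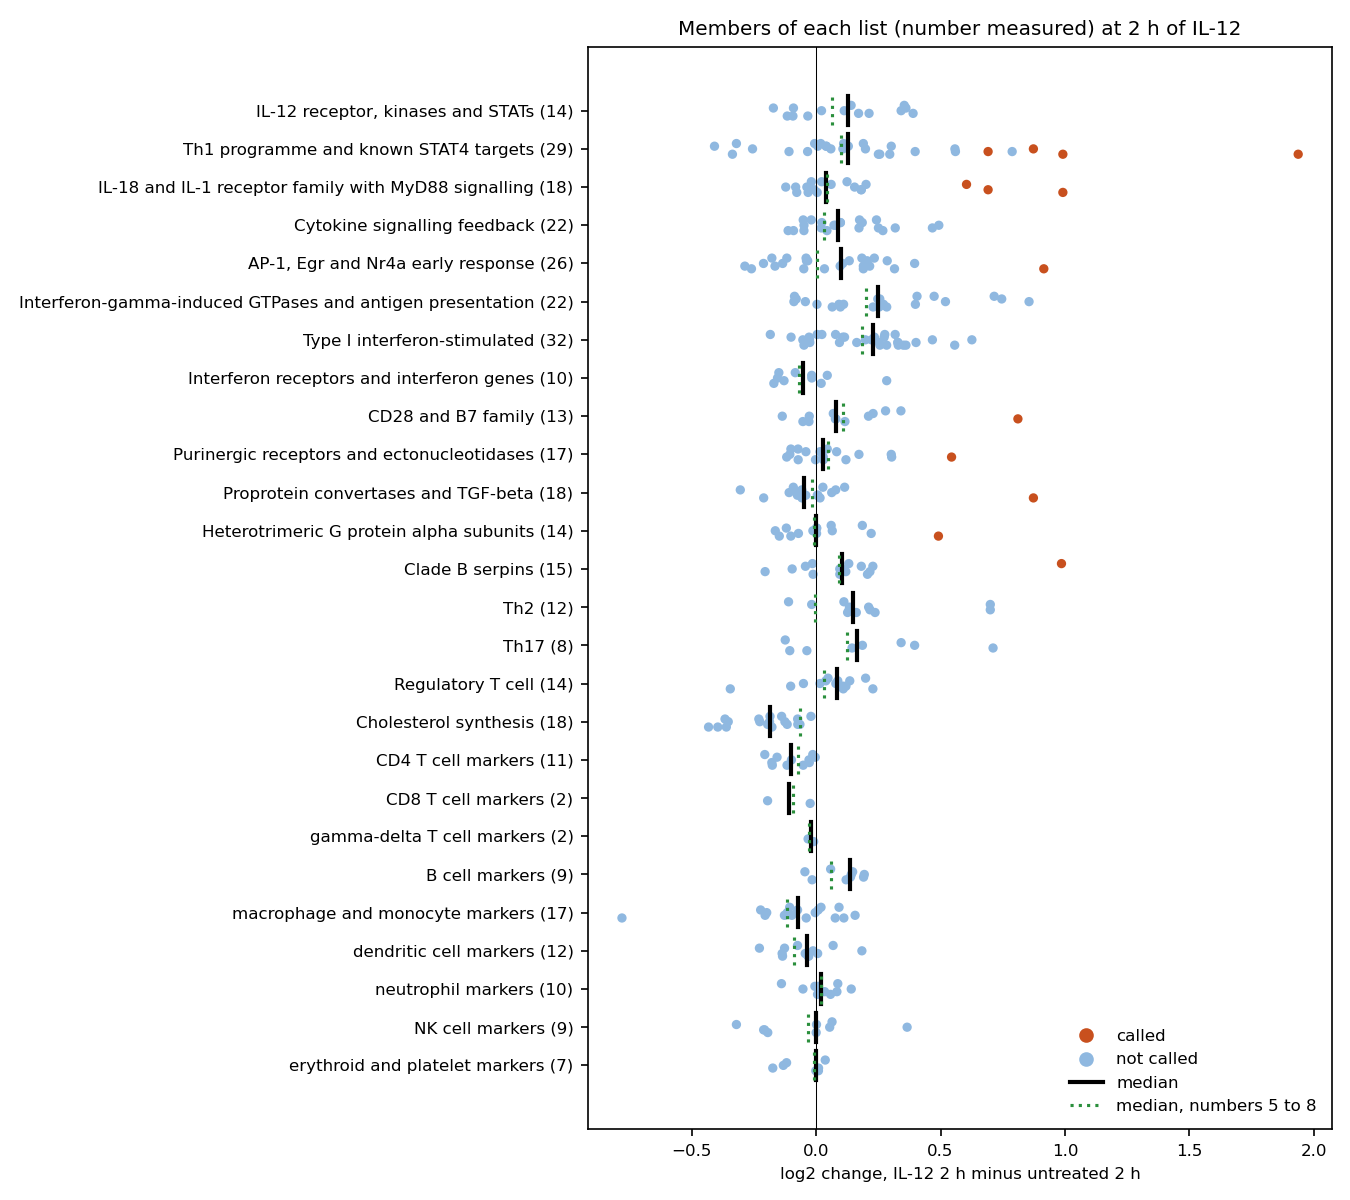
Log2 change from untreated 2 h to IL-12 2 h of every measured member of each gene list, with the number measured in brackets; orange points passed, blue points did not, the black bar is the list's median and the green dotted bar its median among arrays 5 to 8. The interferon lists have medians of 0.25 and 0.23 without an orange point, and the cholesterol list lies wholly below 0.

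Beyond the genes that passed, the 10 named genes with the smallest p and a positive change were Gbp5, Cysltr2, Tbx21, Tex50, Usp18, Irf8, Ifit3, Rragd, Ifi203 and Neb. Their limma adjusted p was from 0.0513 to 0.161. IL-12 arrays 5 and 6 lay above both controls in 10 of the 10 (12.9% of all genes). All 5 IL-12 arrays did so in 9 (6.58% of all genes). The 10 genes were chosen by their p in these arrays, so both counts only describe them. Cysltr2, a receptor for cysteinyl leukotrienes, had the largest change of them, 0.96 ± 0.16. It was at 8.94, 8.94 and 8.92 in IL-12 arrays 2 to 4, 7.97 and 8.21 in arrays 5 and 6, and 7.32 and 7.35 in the controls. All 5 IL-12 arrays were above both controls, but numbers 2 to 4 hold no untreated array. The fitted run difference of Cysltr2 was 0.50 ± 0.12 (limma adjusted p = 0.00708), and its change among arrays 5 to 8 was 0.76.

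On the lower side no gene passed, and the smallest limma adjusted p was 0.218, that of Phlda1, a gene of a pleckstrin homology-like protein. Phlda1 was at 7.78, 7.81 and 7.72 in IL-12 arrays 2 to 4 and at 8.64 in both of arrays 5 and 6, against 8.92 and 9.11 untreated. All IL-12 arrays were below the controls, and its change was -0.36 ± 0.08, and -0.37 among arrays 5 to 8. The other named lower genes were Clba1, the tetraspanin gene Cd9, Acads, Tnfaip8l1, Reg3a, the sphingosine phosphate receptor gene S1pr4, the platelet-activating factor receptor gene Ptafr, Hsdl1 and the scavenger receptor gene Msr1, with changes between -0.38 and -0.28. In 8 of the 10, which were chosen by their p in this comparison, all 5 IL-12 arrays lay below both controls (5.33% of all genes). The 18 measured cholesterol synthesis genes had 18 negative changes (51.5% of all genes had one), 0 of which passed, with a median of -0.19, beside -0.003 over all genes. Among arrays 5 to 8 that median was -0.06.

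Genes of other helper fates did not pass. Of 12 Th2, 8 Th17 and 14 regulatory T cell genes measured, 0 rose and 0 fell. Medians were 0.15, 0.17 and 0.08, and -0.01, 0.13 and 0.03 among arrays 5 to 8. Of the Th2 list the cytokine genes Il9 and Il24 had 0.70 each, with SE of 0.23 and 0.32, but 0.47 and 0.24 among arrays 5 to 8. The ligand-activated transcription factor gene Ahr had 0.71 ± 0.22, and 0.41 among arrays 5 to 8. Foxp3, the regulatory T cell factor, had 0.23 ± 0.15, and 0.06 among arrays 5 to 8. Il24, Ahr and Foxp3 are among the genes whose run difference was not the same at 2 h and 8 h (limma interaction, adjusted p from 5.9e-05 to 0.0309), which the fitted values assume.

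The CD4 label was checked on 11 T cell markers, whose mean log2 level was 11.69 to 11.89 over all 12 arrays, far above the median gene. Their 11 changes were negative with a median of -0.10, and 0 passed. Of markers of other cells, 0 of any list passed. Markers of macrophages and monocytes were lower in the arrays numbered 2 to 4, and in arrays 5 to 8 their mean in treated and untreated arrays overlapped slightly. The mean level of 17 such markers was 6.71 to 6.79 in IL-12 arrays 2 to 4, 7.06 to 7.16 in IL-12 arrays 5 and 6 and 7.15 to 7.27 in the untreated arrays. Their summed intensity was 2264 to 3739 with IL-12 and 3919 to 4152 untreated, and 11 of the 17 lay below the median gene. Of their changes 6 were positive and 11 negative, with a median of -0.07. Lyz2, the most negative of them and a lysozyme gene of myeloid cells, was at 7.23, 6.66, 6.91, 8.93 and 9.41 with IL-12 and 9.93 and 9.64 without, a change of -0.78 ± 0.24 (limma adjusted p = 0.796). In bulk RNA fewer cells of a type and less RNA per cell cannot be told apart. Cd86, P2rx7, Myd88 and Sbno2, which rose, are also expressed by myeloid cells, and so are Ptafr and Msr1, which had changes of -0.38 and -0.35. With the mean of the macrophage markers as a covariate, Furin and Ifng were the 2 genes called. The 14 changes in that fit were between 0.45, for Mir505, and 2.10, for Ifng. Cd86 had 0.87 ± 0.16, Myd88 0.63 ± 0.11, Sbno2 0.74 ± 0.13 and P2rx7 0.53 ± 0.11, with larger SE than without the covariate. The marker mean itself differed with the run and between the groups, so this fit cannot separate it from them. Whether myeloid cells contributed to these changes was not tested. B cell markers had a median of 0.14 over 9 genes, dendritic cell markers -0.04 over 12, neutrophil markers 0.02 over 10, NK cell markers 0.00 over 9, erythroid and platelet markers -0.001 over 7, CD8 markers -0.11 over 2 and gamma-delta T cell markers -0.02 over 2.

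The title numbers split the IL-12 arrays, since numbers 2 to 4 have no untreated partner. No label says what the numbers mean. IL-12 arrays 5 and 6 correlated with the untreated arrays at 0.9953 to 0.9980 across genes, which are not independent replicates, and with each other at 0.9966, while they correlated with IL-12 arrays 2 to 4 at 0.991 to 0.993. Across all 12 arrays 4795 genes (24.3%) differed with the run, and of the 14 genes that rose 5 did: Serpinb5, Myd88 and P2rx7 were higher and Cd86 and Mir505 lower in the arrays numbered 2 to 4. The fit therefore held a term for the run, estimated from the IL-12 arrays of both times.

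The comparison within numbers 5 to 8 needs no such term. There, 2 arrays against 2, the 14 genes had changes of 0.48 to 1.68. These 4 arrays are also in the fit that chose the 14, so their direction here is a description and no separate support. All 14 had an unadjusted p under 0.05 (1.90% of genes did in that direction and 1.28% in the other), and Ifng alone passed after adjustment. The ratio of the change in the whole fit to that within numbers 5 to 8 was between 0.974 and 1.20. It was 1.20 for Cd86, 1.17 for Frmd4b and 1.15 for Ifng, and near 1 for Il18r1, Il18rap, Serpinb5, Furin and Myd88.

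**Figure D3:**
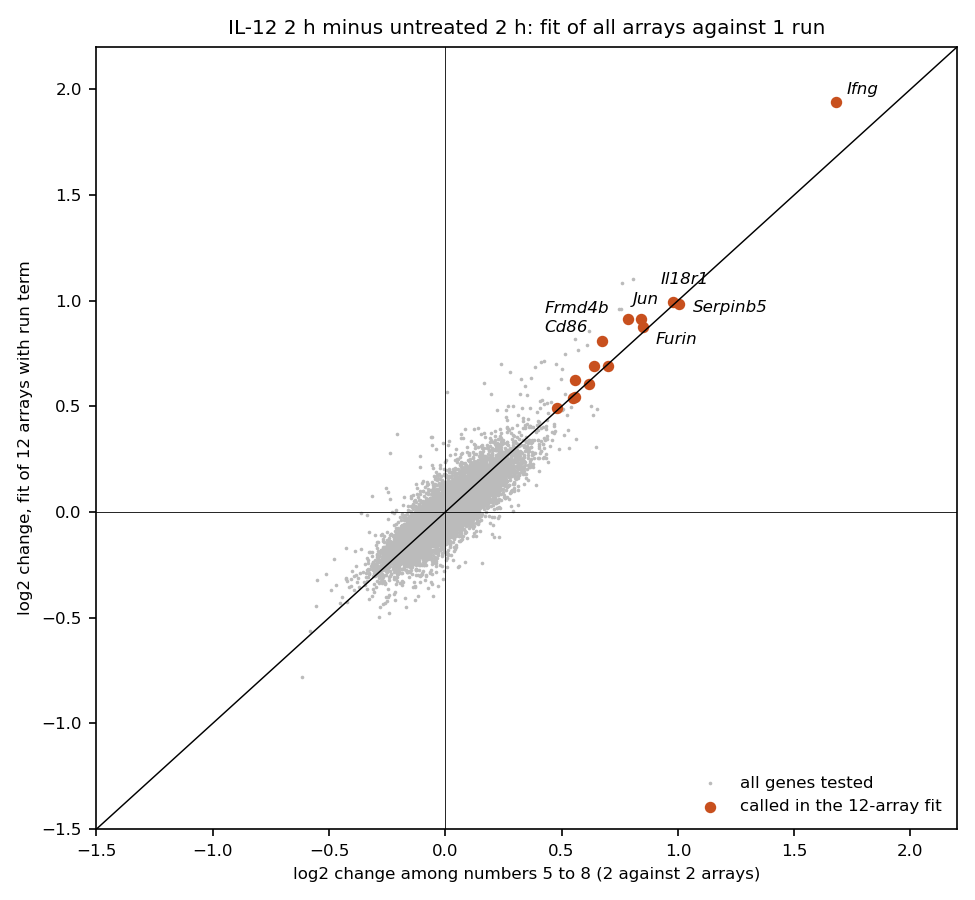
Log2 change from untreated 2 h to IL-12 2 h for every gene: in the fit of 12 arrays with a run term (y axis) against the difference of means among arrays 5 to 8 alone (x axis); the diagonal marks equal values and orange points are the genes that passed. Ifng lies farthest out, at 1.68 and 1.94, and all 14 orange points lie near or above the diagonal.

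The fit takes the run difference to be the same at 2 h and at 8 h, which could be tested over the 9 IL-12 arrays. That did not hold for 387 genes (1.96%; limma interaction, adjusted p under 0.05), Ifng among them. From 2 h to 8 h Ifng fell by 0.98 on the log2 scale in the arrays numbered 2 to 4, while in arrays 5 and 6 its levels of 11.25 and 11.20 at 2 h and 11.28 and 11.12 at 8 h differed by a mean of -0.03 (interaction -0.95, limma adjusted p = 0.00179). Frmd4b and Cd86 were near the threshold, with -0.48 and -0.50 (limma adjusted p = 0.0517 and 0.0523). Of the interferon-inducible genes above, Iigp1, Cxcl9, Cxcl10 and Ifit1 had interactions of -0.87, -0.84, -1.07 and -0.86 (limma adjusted p from 0.0038 to 0.0188), each with the larger drop in the arrays numbered 2 to 4. With a separate mean for each group in each run, which drops that assumption and compares IL-12 arrays 5 and 6 with the controls on the spread of all arrays, 20 genes were called (0.101%), all higher. They held 12 of the 14, without Gnaq and D730005E14Rik, and added Armcx6, Cysltr2, Gm4951, Hectd2, Iigp1, Il3, Nipa1 and Prnp, which are named after their values were seen.

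The calls leaned on the 2 untreated arrays. Without untreated array 7, 2 genes were called, Furin and Ifng, and without untreated array 8, 5 were: Furin, Ifng, Il18r1, Il18rap and Jun. Without IL-12 array 3, 9 genes were called. The untreated pair differed by at most 0.29 in any of the 14 genes, and correlated at 0.9965.

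By 8 h of IL-12 the 14 genes had parted ways. The comparisons with 8 h share the untreated or the IL-12 2 h arrays, and no untreated sample of 8 h is among the arrays, so 8 h levels are given as values beside those at 2 h. Il18rap was at 7.71, 7.73, 7.68 and 7.65 in the 8 h arrays, only just above the untreated arrays at 7.50 and 7.61. Il18r1, at 8.33, 8.67, 8.67 and 8.22, was farther above its untreated levels of 7.54 and 7.80. Frmd4b was at 9.06, 9.26 and 9.20 in 8 h arrays 2, 5 and 6 and lower still in array 3, below both controls, and fell by 1.37 on the log2 scale from 2 h (limma adjusted p = 3.83e-07). Serpinb5 and P2rx7 went the other way, from 2 h to 8 h, by 0.56 and 0.36 (limma adjusted p = 0.00113 and 0.00151). In all, 9 of the 14 were called higher at 8 h than in untreated cells (1.04% of all genes were, and 3.16% differed in either direction), and between 2 h and 8 h 10 were called lower (6.36%) and 2 higher (6.27%). The 14 were chosen as high in the 2 h arrays and low in the untreated arrays, which enter these counts, so nothing is read from the counts or from the single changes beyond their size.

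**Figure D4:**
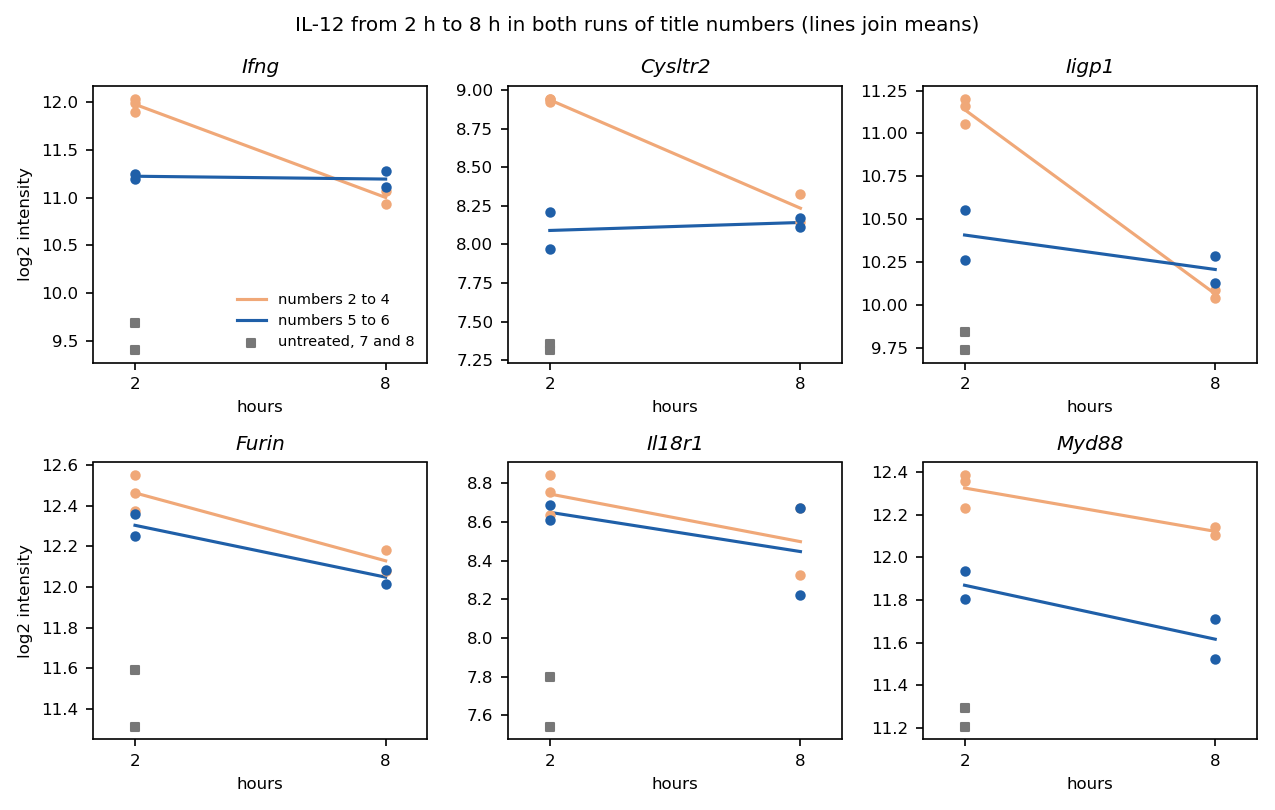
Log2 intensity of 6 genes at 2 h and 8 h of IL-12, in arrays numbered 2 to 4 (orange) and 5 to 6 (blue), with the untreated arrays of 2 h as grey squares; points are arrays and lines join means. The orange and blue lines of Ifng, Cysltr2 and Iigp1 are not parallel, with interactions of -0.95, -0.75 and -0.87, whereas those of Furin, Il18r1 and Myd88 are close to parallel.

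The single baseline array, whose label gives no culture time, was lower than the mean of the untreated arrays in 12 of the 14 genes, Myd88 and P2rx7 being the exceptions. Furin, Jun, Il18r1, Il18rap, Cd86, Gnaq and Frmd4b passed as higher in untreated cells than in this 1 array (6.28% of all genes did), by 1.31 for Furin and 0.80 for Cd86. The baseline has no replicate, so the fit takes its spread from the other groups, and these values compare the untreated arrays with that array, not with the condition. It was not used as a control.

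Over all 24922 probe sets, 14 passed (0.0562%), of which 13 carried 1 gene symbol that is among the 14 genes. The remaining probe set, 10590635, is unnamed here. Its levels were 9.37, 9.23, 9.14, 8.27 and 8.46 with IL-12 and 7.26 and 7.23 without, a 2.07-fold rise (log2 1.05 ± 0.13, limma adjusted p = 0.0104; 1.12 among arrays 5 to 8). All IL-12 arrays were far above both controls, and those numbered 2 to 4 were the highest.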

How the data were processed

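Values are from 12 Affymetrix Mouse Gene 1.0 ST arrays. Per the submitters' processing notes the authors used RMA in Affymetrix Power Tools (versions not given in the sources used here), a method that corrects background, normalizes between arrays and summarises probes, and what they deposited is linear intensity for 24922 probe sets. Neither genome build nor probe annotation is stated there. The arrays' median intensities were 160.6 to 167.3. Precision is limited by the small number of arrays.

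Log2 was taken of the intensities with no further normalization. In GEO's platform annotation there was 1 symbol for 21425 probe sets, several for 1399 and none for 2098. Gene IDs of 21347 matched the current gene table and 0 symbols changed. Of the several probe sets that 921 genes had, the one with the highest mean was kept, which left 19752 genes with no filter on dim ones.

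The main model had 4 group means over all 12 arrays and a term for title numbers 2 to 4 against 5 to 8, with limma 3.58.1 (lmFit, eBayes) under R 4.3.3 (7 residual and 6.84 prior degrees of freedom). Tests were two-sided, and a gene was called where its p, adjusted by Benjamini-Hochberg across the 19752 genes, was under 0.05. Changes are ± SE. A separate fit used the 4 arrays numbered 5 to 8 (2 residual degrees of freedom), and the run-by-time interaction used the 9 IL-12 arrays. On simulated data for 19752 genes with 100 genes of each size, the main comparison called 82% of changes of a log2 of 0.5 and 100% of 1 with 10 false calls, the comparison within numbers 5 to 8 called 67% and 100% with 21, and the interaction 12% and 96% with 11. The simulated noise was normal and independent between arrays, and the run difference was the same in all groups apart from the changes put in. In the real data 387 genes had a run-by-time interaction, so these shares need not hold there. The Benjamini-Hochberg cutoff also loosens as more genes change, and 100 of each size were put in. The shares are therefore no measure of what the real comparison could call. In the real main comparison Gnaq at 0.49 and Mir505 at 0.54 were called. Gbp5 at 0.52, Tbx21 at 0.56, Ifit3 at 0.63 and Cysltr2 at 0.96 were not (limma adjusted p = 0.0513, 0.0705, 0.135 and 0.0513). Among the real arrays 5 to 8, Serpinb5 at 1.00 and Il18r1 at 0.98 were not called (limma adjusted p = 0.249 for both).

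The comparison, the gene lists (17 lists and 9 marker lists, 409 genes, 366 measured) and the rules were chosen with earlier results of these data known. Named were all called genes, the 10 uncalled genes with the smallest p on either side that have a given name, a panel of IL-12 path genes and, from each list, at most 4 genes by smallest p. Other list members and the genes added by separate run means were named after their values were seen. Motifs were searched in 32851 RefSeq windows of 250 bases with Python 3.11.15, and figures drawn with matplotlib 3.10.9. Alternatives changed the run term, the arrays, the variance model, the normalization, the probe sets, the control and the replicates.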

Additional observations from a re-analysis of the deposited data

Results flagged for a closer look

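In 4 of 180 groups of arrays tested, an array stood far from the others of its group. Chance gives about 1 in 20, which is more, so nothing is read from these 4. Gnaq was at 9.60 in IL-12 2 h array 2 and 9.33 to 9.40 in the other 4, Jak2 at 11.9 in array 6 and 11.6 to 11.7 in the others, Cd8a at 7.33 in array 5 and 7.06 to 7.11, and Cd28 at 12.6 in array 3 and 12.4 in the others.

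The named genes were the 14 called and 152 uncalled. For 25 of them the change from 2 h to 8 h of IL-12 differed between the arrays numbered 2 to 4 and those numbered 5 and 6. The test was the limma interaction, with n = 3 and 2 at 2 h and n = 2 and 2 at 8 h. The untreated arrays take no part in this test. The largest differences were those of 3 cytokine genes: Il24 had an interaction of -1.68 on the log2 scale (limma adjusted p = 5.9e-05), Il2 -1.33 and Il3 -1.18. Ifng had -0.95. Ifng, the only one of the 14 called genes among the 25, fell by 0.98 in the arrays numbered 2 to 4 and differed by -0.03 in arrays 5 and 6.

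Interferon-inducible genes among them were Cxcl10 at -1.07, Iigp1 at -0.87, Ifit1 at -0.86 and Cxcl9 at -0.84, and the receptor chain gene Ifngr2 at -0.52, whereas Ifngr1, the other chain, had 0.60. Transcription factor genes were Ahr at -1.10, Batf at -0.93, Eomes at -0.84, Foxp3 at -0.61 and Nr4a1 at 0.68. The others were Gm4951 at -1.07, Pdcd1lg2 at -0.76, Cysltr2 at -0.75, Armcx6 at -0.73, Socs1 at -0.61, the chemokine receptor gene Cxcr3 at 0.86, the sterol synthesis genes Sqle at 0.79 and Dhcr7 at 0.63, Prnp at 0.64 and Nipa1 at 0.61. Over all genes 1.96% had such an interaction. The named genes are no fair sample of all genes, as many were named by their p or after their values were seen. Armcx6, Gm4951, Il3, Nipa1 and Prnp were named because separate run means called them, a choice that favours genes with an interaction.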

How the results depend on the processing

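In 23 alternatives the 14 called genes gave 321 values, all positive, 217 of them called. The 14 were chosen as higher in these same arrays, which the alternatives reuse, so the signs add no support to the calls. Ifng was called in 23 of 23 (log2 1.68 to 2.13, limma adjusted p from 8.41e-06 to 0.0439), Furin in 20, Il18r1, Il18rap and Jun in 19, but Gnaq and Mir505 in 10 and D730005E14Rik in 5. The count of 14 became 9 without the run term, 1 in numbers 5 to 8 alone, 1 there with the 8 h arrays, 9 with array weights and 2 with the macrophage covariate. Leaving out 1 array gave 2 to 13 (2 without untreated array 7, 5 without 8, 9 without IL-12 array 3). Other alternatives gave 11 to 20. No gene was called lower in any.

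Untreated numbers 7 and 8 occur in no other group, so pairs could not be formed. With the title number as a random replicate block, 17 genes were called (consensus correlation -0.14), all 14 among them, and no call was lost.

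The within-run count of 1 was 1 to 53 without 1 array (53 without IL-12 array 5, 18 without 6). The interaction count of 387 was 136 to 561, lowest without 8 h array 2, and under 387 by over 1.5 times also without 8 h arrays 3 or 6 (207, 176) or 2 h arrays 3, 4 or 6 (206, 186, 248). The count of 1 unnamed probe set was 0 without the run term and 0 to 9 without 1 array (0 without untreated 7 or 8, 9 and 2 without IL-12 array 5 or 6). The cause of these moves was not tested. Of 152 uncalled named genes, 24 values in 3458 were called under an alternative and 136, in 57 genes, changed sign. The alternatives with run means, for the within-run count and the unnamed probe sets, and other normalization or variance for the interaction, were added after the data were seen. With 2 untreated arrays, a median gene's change had a 95% interval of 0.20 to either side on the log2 scale, before adjustment for the number of genes.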
